A study of Rattus norvegicus with 68 samples.

Results

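The comparison described here is that of unexposed rats, those killed after 13 weeks (13 w) in air against those killed after 5 days (5 d). Its members are the 8 arrays that the labels place at 0 ppm, 4 animals at each time, of 68 arrays in all, and every probe set that names 1 gene, 20826 of 31099. Those probe sets stand for 14217 genes, each represented by its brightest probe set. The study exposed male F344/CrlBR rats, 8 weeks old at the start, to formaldehyde in whole-body chambers for 6 hours a day on 5 days a week, and the 0 ppm animals breathed air alone on that schedule. Cells were freed with proteases from the epithelium of the level II nose, where transitional epithelium dominates, with the maxilloturbinate and the olfactory lining discarded. Animals of both groups share strain, sex, dose and tissue. They differ in age and in time spent in the chamber, which cannot be told apart. The title of each 0 ppm array also holds a code starting in ACO, of unstated meaning and not the same at both times, so whatever it stands for cannot be told apart from time either. The series description gives 1 week where the labels give 5 d, which was treated as the same time. The same interval at 0.7 and 2 ppm, 8 arrays each, shares no array with the unexposed groups and is given beside them.

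The lining of the nose is renewed throughout life by the division of basal cells, and the genes that drive mitosis are transcribed together in the late phases of the cell cycle. The olfactory lining nearby is one of the few places where neurons are replaced in adults, passing through a stage of axon growth, marked by Gap43, before they make the olfactory marker protein Omp. Plasma cells in the nasal lining secrete polymeric immunoglobulin that is held together by the joining chain, Jchain.

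Of 14217 genes tested with limma, 319 (2.24%) passed a Benjamini-Hochberg adjusted p of 0.05 between unexposed 13 w and 5 d, 89 of them higher at 13 w (0.626%) and 230 lower (1.62%). The median of all genes was -0.02 on the log2 scale. Changes were modest: the median called gene was higher by 0.42 or lower by 0.39 log2 units, and 74 called genes changed by at least 1.5-fold. The excess of lower genes depended on scaling and on the choice of probe set. Of the calls, 72.1% were lower in the deposited values, 51.9% (121 lower, 112 higher) after each array was centred on its median and 65.6% after cyclic loess. The share was 54.9% with the mean of a gene's probe sets and 51.3% with every probe set by itself. These counts borrow the spread of all 17 groups. When the fit was limited to the 8 unexposed arrays, 0 genes passed limma's adjusted p, the smallest being 0.0505, while 2657 had an unadjusted p under 0.05. Leaving out 1 array gave from 87 calls (without animal 207 of 5 d) to 329, and without animals 225 or 230 of 13 w, or 208 of 5 d, 180, 88 and 108 genes were called. All 4 arrays of 13 w lay above all 4 of 5 d for 554 genes (3.9%) and below them for 1060 (7.46%).

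**Figure D1:**
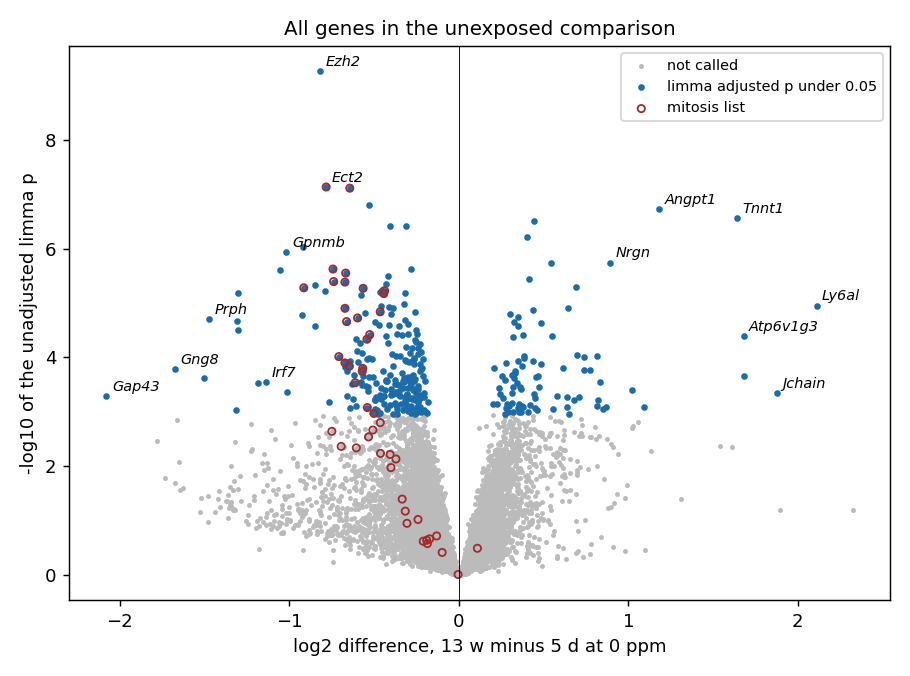
Log2 difference between 13 w and 5 d at 0 ppm (x axis) against -log10 of the unadjusted limma p (y axis) for 14217 genes. Blue points are the 319 genes called and red rings the 46 measured genes of the mitosis list, of which 24 were called, all lower.

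Epithelial markers had high signal at both times. Epcam, an epithelial adhesion molecule, ranged from 12.8 to 13.0 over the 8 arrays, and the basal keratin gene Krt5 averaged 11.96 ± 0.22 at 13 w and 11.95 ± 0.23 at 5 d (SD, n = 4 each). Krt8, a keratin gene of simple epithelium, averaged 12.64 ± 0.09 at 13 w and 12.84 ± 0.09 at 5 d (limma adjusted p = 0.342). Markers of other cells were present as well. The bone gene Bglap ranged from 13.2 to 13.9 and Omp from 10.3 to 13.3, although the olfactory lining had been discarded. Of the fat markers, Plin1 stayed under 4.87 and Adipoq ranged from 5.91 to 6.37. RNA integrity numbers were 7.57 ± 0.23 at 13 w (n = 3) and 7.68 ± 0.29 at 5 d (n = 4), a difference of -0.11 (exact permutation p = 0.714, two-sided). The beta-actin 3' minus 5' signal, a measure of RNA degradation, differed by -0.12 (exact permutation p = 0.343, two-sided). The labels also give an optical density, which was lower in most animals of 13 w than in those of 5 d. Its difference was not tested. Lower signal of a gene in such mixed samples can mean fewer cells of a type or less RNA per cell, which cannot be told apart here.

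Of the 45 gene lists examined, that of mitosis held the most calls. Of 46 measured members of the mitosis list, 24 were called lower at 13 w and 0 higher, beside 1.62% of all genes called lower. Called or not, 45 of the 46 lay below 0, and the list's median change was -0.53 against -0.02 for all genes. The mean signal of the list lay between 7.44 and 7.75 in the animals of 5 d and between 6.997 and 7.25 in those of 13 w, so the groups did not overlap. The count of 24 calls became 13 without animal 207 of 5 d, and 16 without animal 230 of 13 w or 208 of 5 d. It was 0 in the fit on the 8 arrays alone.

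Ect2, a gene needed for cytokinesis (Entrez gene 361921), read 8.07, 8.16, 7.87 and 7.72 in the animals of 5 d and 7.17, 7.07, 7.44 and 7.01 in those of 13 w. It was lower by 0.78 ± 0.13 log2 units (limma's SE, n = 4 per group), or 1.72-fold (limma adjusted p = 0.000366). Here and below, the ± of a log2 difference is this SE, which pools the spread of all 17 groups. Cdk1, the kinase that drives entry into mitosis, read 9.23, 9.52, 9.41 and 9.12 at 5 d and 8.63, 8.62, 8.82 and 8.55 at 13 w, with no overlap. It fell by 0.67 ± 0.13 (limma adjusted p = 0.00222). Pttg1, which encodes securin, the guard of sister chromatid separation, fell by 0.64 ± 0.10 (limma adjusted p = 0.000366). Its 4 arrays of 13 w spanned only 8.36 to 8.44, against 8.79 to 9.24 at 5 d. Nusap1, a spindle-associated protein gene, fell by 0.74 ± 0.14 (limma adjusted p = 0.0021), and Cdkn3, a phosphatase gene of the cell cycle, by 0.91 ± 0.18 (limma adjusted p = 0.0028). The standard proliferation markers gave the same sign without passing: Mki67 differed by -0.75 ± 0.23 (limma adjusted p = 0.0694) and Top2a by -0.40 ± 0.15 (limma adjusted p = 0.142).

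Called genes outside the mitosis list included others with roles in the nucleus and centrosome. Ezh2, the histone H3 methyltransferase of the Polycomb complex, had the smallest p of all genes. It read 7.65, 7.92, 7.69 and 7.47 at 5 d and 6.83, 7.05, 7.02 and 6.54 at 13 w, a fall of 0.82 ± 0.11 (limma adjusted p = 7.75e-06). Another Ezh2 probe set read 7.08 at 13 w against 7.26 at 5 d and another, of low signal, 4.19 against 4.41, and with the mean of the probe sets the fall was 0.41 (limma adjusted p = 0.0138). Plk4, the kinase that starts centriole duplication, fell by 1.30 ± 0.26, or 2.47-fold (limma adjusted p = 0.0028), and Dscc1, a cohesion factor gene, by 0.85 ± 0.17 (limma adjusted p = 0.00278). Lmnb1, which encodes lamin B1 of the nuclear envelope, fell by 0.41 ± 0.08 and the tubulin gene Tubb5 by 0.79 ± 0.16. At 13 w Plk4 read 7.43 and 6.96 in animals 225 and 230, and 8.12 and 8.30 in 226 and 229. Tubb5 read 10.7 and 10.7, and 11.5 and 11.3, in the same order. The olfactory neuron gene Omp was also lower in animals 225 and 230. With the mean of the olfactory neuron list, which holds Omp, as a covariate, Plk4 and Tubb5 kept their calls. Over all settings tried, that covariate among them, their smallest changes were -0.87 and -0.56. Whether these falls follow Omp itself was not tested. Ccno, a cyclin needed to make the centrioles of multiciliated cells, fell by 0.85 ± 0.18 (limma adjusted p = 0.00596) and was the single called member among 35 of the cilia list, beside 1.62% of all genes called lower. Its call was lost with the mean of its probe sets (-0.50, limma adjusted p = 0.0589), the other probe set having low signal. All 35 cilia genes lay below 0, with a median of -0.29, and 11 had an unadjusted p under 0.05, which 16.9% of all genes had. Among them Foxj1, the ciliated cell regulator, differed by -0.12 (limma adjusted p = 0.78) and Tekt1, a tektin gene of the axoneme, by -0.43 (limma adjusted p = 0.254). The cilia medians at 0.7 and 2 ppm were 0.04 and 0.11. Of 34 members of the S phase and replication list 2 were called lower, beside 1.62% of all genes, Cdt1 (-0.57 ± 0.14) and Rfc3 (-0.31 ± 0.08). The list's median was -0.21, and 12 members lay wholly lower at 13 w, as 7.46% of all genes did. At 2 ppm 22 of the 34 were called lower (6.37% of all genes), and at 0.7 ppm 1 was (1.05%). Both lost their call when any of 5 single arrays was left out, with limma adjusted p up to 0.109 and 0.199, each without animal 207 of 5 d. Those arrays were animals 225, 226 and 230 of 13 w and 207 of 5 d for both, with 204 for Cdt1 and 208 for Rfc3. Hist3h2ba, a histone H2B gene, fell by 1.31 ± 0.28 (limma adjusted p = 0.00557), and it missed the threshold without animal 230 of 13 w (0.0591) or 207 of 5 d.

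The promoters of 4 of these mitosis genes are shown because the mitosis list moved as a group. They are the 250 bases before the start in RefSeq's rat genome GRCr8, 5' to 3' on the gene's strand. Capitals mark the letters CCAAT and TTTGAA on either strand (ATTGG and TTCAAA when reversed), the motifs known as the CCAAT box and the cell cycle homology region. The search was chosen after the values were seen.
Ect2 (chr2:111966627-111966876, minus strand): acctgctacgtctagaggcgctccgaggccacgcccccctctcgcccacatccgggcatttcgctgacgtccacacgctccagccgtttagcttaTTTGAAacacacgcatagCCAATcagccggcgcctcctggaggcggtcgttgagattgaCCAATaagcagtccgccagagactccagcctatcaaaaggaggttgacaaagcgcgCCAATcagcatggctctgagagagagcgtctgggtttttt
Pttg1 (chr10:28406327-28406576, minus strand): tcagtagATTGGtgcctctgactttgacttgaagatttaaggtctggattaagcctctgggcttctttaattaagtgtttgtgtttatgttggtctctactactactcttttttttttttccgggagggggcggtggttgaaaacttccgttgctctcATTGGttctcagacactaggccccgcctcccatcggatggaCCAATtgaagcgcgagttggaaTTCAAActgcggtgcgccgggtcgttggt
Nusap1 (chr3:127057045-127057294, plus strand): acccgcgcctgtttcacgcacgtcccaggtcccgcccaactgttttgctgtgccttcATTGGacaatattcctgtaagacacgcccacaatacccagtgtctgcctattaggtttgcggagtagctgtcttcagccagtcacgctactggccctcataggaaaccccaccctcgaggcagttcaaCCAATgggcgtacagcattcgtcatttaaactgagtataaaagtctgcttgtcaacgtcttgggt
Cdk1 (chr20:19265043-19265292, plus strand): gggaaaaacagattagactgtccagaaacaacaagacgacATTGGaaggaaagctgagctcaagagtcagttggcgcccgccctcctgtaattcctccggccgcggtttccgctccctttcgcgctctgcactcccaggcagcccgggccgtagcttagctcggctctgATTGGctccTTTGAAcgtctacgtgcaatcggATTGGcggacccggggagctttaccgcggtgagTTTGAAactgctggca
Over the 21 called mitosis genes with a RefSeq window, 15 (71.4%) held CCAAT and 9 (42.9%) TTTGAA, against 34.0% and 16.2% of all 33465 windows of the same length. All 38 measured mitosis genes with a window held them in 29 (76.3%) and 19 cases. A match describes these letters and not a site that was shown to be used.

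The same interval was then read in the exposed animals. At 0.7 ppm 6 members of the mitosis list were called, all lower (median -0.33), where 1.05% of all genes were called lower. At 2 ppm 34 were called lower and 0 higher (median -0.54), where 6.37% of all genes were called lower. Of the 24 members called at 0 ppm, 6 were also called lower at 0.7 ppm and 23 at 2 ppm, and all 24 were below 0 at both. The list mean fell at 0 ppm from 7.58 ± 0.13 to 7.09 ± 0.11 (SD, n = 4). At 0.7 ppm it went from 7.53 ± 0.09 through 7.28 ± 0.26 at 4 weeks (4 w) to 7.18 ± 0.12, and at 2 ppm from 7.80 ± 0.07 through 7.53 ± 0.11 to 7.29 ± 0.03. Over all genes, 269 (1.89%) were called at 0.7 ppm, 120 of them higher (0.844%), and 1212 (8.53%) at 2 ppm, 306 of them higher (2.15%). These splits also moved with scaling: after each array was centred on its median, 218 genes were called higher and 71 lower at 0.7 ppm, and 382 higher and 478 lower at 2 ppm. Of the 319 unexposed calls, 65 were also called in the same direction at 0.7 ppm and 131 at 2 ppm, and 0 in the opposite one. For the 230 lower genes this was 48 (20.9% of them and 32.2% of the 149 lower calls at 0.7 ppm) and 101 (43.9% of them and 11.1% of the 906 at 2 ppm). For the 89 higher genes it was 17 (19.1% of them and 14.2% of 120) and 30 (33.7% of them and 9.8% of 306).

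**Figure D2:**
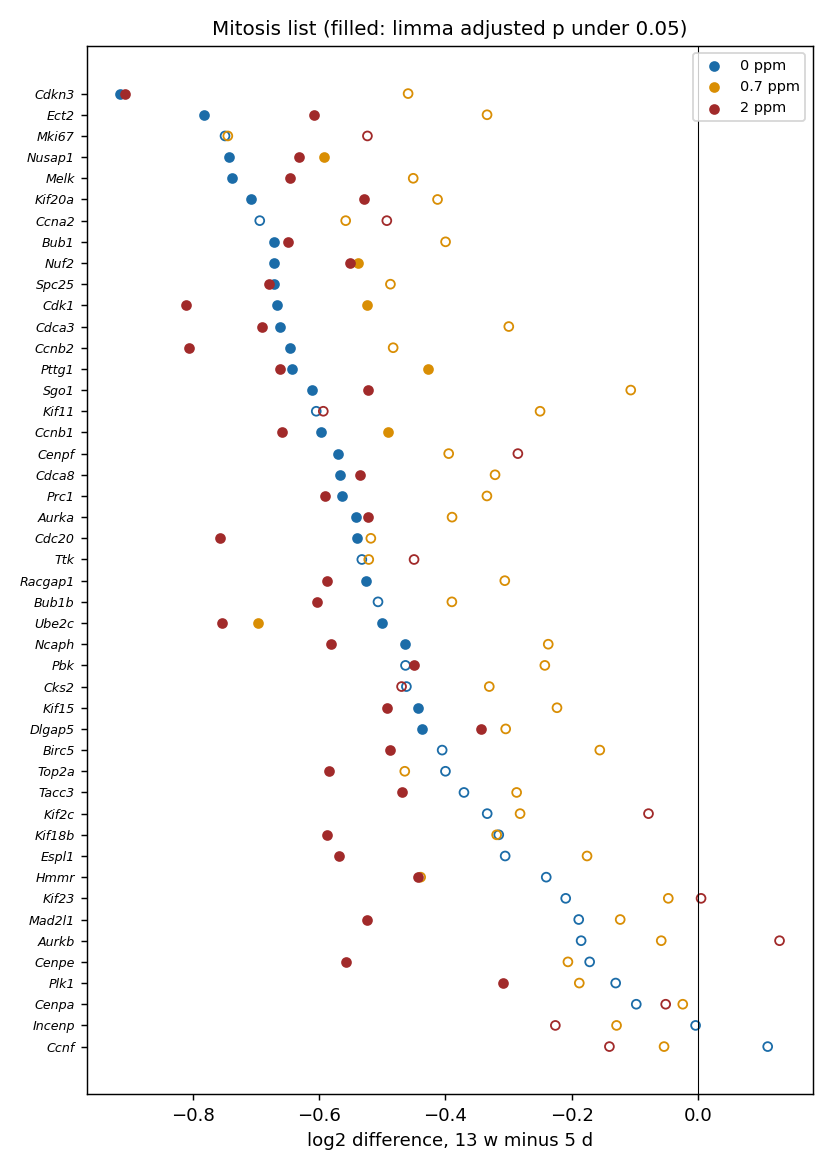
Log2 difference between 13 w and 5 d (x axis) for the 46 measured genes of the mitosis list (rows) at 0, 0.7 and 2 ppm. Filled points passed limma's adjusted p of 0.05. Nearly all points lie left of 0, and the list medians are -0.53, -0.33 and -0.54.

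**Figure D3:**
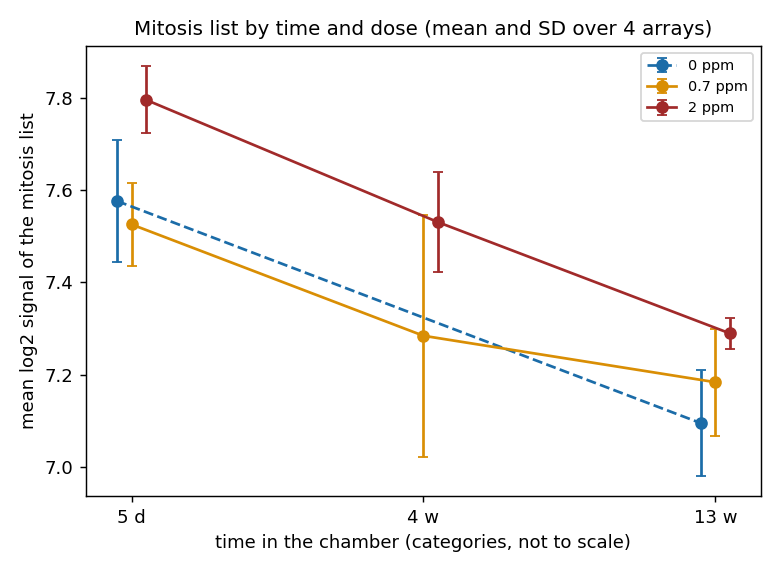
Mean log2 signal of the mitosis list (y axis) by time (x axis, categories) at 0, 0.7 and 2 ppm, as mean and SD over 4 arrays. The list mean at 13 w is below that at 5 d at each dose, with the 0 ppm line joining 2 time points only.

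Whether the interval changed a gene differently under exposure was tested as an interaction. With 0.7 ppm 1 gene passed (0.00703%), Mmp15, a membrane-type metalloproteinase gene. It read 9.70 ± 0.07 at 5 d and 9.51 ± 0.09 at 13 w at 0 ppm, and 9.38 ± 0.20 and 9.67 ± 0.06 at 0.7 ppm, a difference between the time changes of 0.47 ± 0.09 (limma adjusted p = 0.0335). It was lost when any of 5 single unexposed arrays was left out. These were animals 229 and 230 of 13 w and 207, 208 and 210 of 5 d, with the smallest limma adjusted p of any gene between 0.0561 and 0.26. An unadjusted p under 0.05 was reached by 760 genes (5.35%). With 2 ppm 0 genes passed limma's adjusted p, the smallest being 0.546, and 1241 genes (8.73%) had an unadjusted p under 0.05. Mmp15 changed by -0.08 at 2 ppm, which differed from its change at 0 ppm by 0.10 (limma adjusted p = 0.651).

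Gap43 and Gng8, which mark young olfactory neurons, had the largest falls of all called genes. Gap43, a growth cone protein gene (Entrez gene 29423), read 10.5, 11.3, 11.2 and 10.4 in animals 204, 207, 208 and 210 of 5 d. It read 8.37, 9.78, 9.55 and 7.39 in animals 225, 226, 229 and 230 of 13 w. All 4 values of 13 w lay below those of 5 d, animals 225 and 230 farthest. The fall was 2.08 ± 0.56, or 4.22-fold (limma adjusted p = 0.0327). Gng8, a G protein subunit gene of immature olfactory neurons, fell by 1.67 ± 0.41 (limma adjusted p = 0.018), and Tubb2b, a neuronal tubulin gene, by 1.51 ± 0.38 (limma adjusted p = 0.022). Prph, the neuronal filament protein peripherin, fell by 1.47 ± 0.31 (limma adjusted p = 0.00538). It was the single call among 17 nerve and Schwann cell markers (median 0.06), beside 1.62% of all genes called lower. Nhlh1, a transcription factor gene of newly formed neurons, fell by 1.31 ± 0.37 (limma adjusted p = 0.0449), and Stmn1, a microtubule-destabilising protein gene of dividing cells and growing neurons, by 1.05 ± 0.20 (limma adjusted p = 0.0021). Stmn1 and Prph kept their calls without any 1 array. Without animal 230 of 13 w the limma adjusted p was 0.207 for Gap43, 0.143 for Gng8, 0.146 for Tubb2b and 0.173 for Nhlh1. Each of those was also lost without animal 207 or 208 of 5 d, and Gap43, Tubb2b and Nhlh1 without animal 225, Nhlh1 also without 229. Nhlh1 also missed the threshold after median centring (limma adjusted p = 0.0536) and cyclic loess (0.0538). Nrep, which encodes the neuronal regeneration-related protein, fell by 1.01 ± 0.27 (limma adjusted p = 0.0303) and was lost without the same 5 arrays as Nhlh1 (up to 0.162). Another probe set named Gap43 read 3.54 at 13 w and 3.53 at 5 d, a level of low signal.

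The markers of mature olfactory neurons varied too widely between animals to be called. Omp read 12.3, 13.1, 13.3 and 12.4 at 5 d and 10.8, 12.9, 12.8 and 10.3 at 13 w, so animals 226 and 229 lay within the range of 5 d and 225 and 230 below it. Its difference was -1.09 ± 0.65 (limma adjusted p = 0.397), and Gng13 and Cnga2, signalling genes of olfactory cilia, gave -1.14 ± 0.65 and -1.09 ± 0.70. Another Omp probe set read 9.46 at 13 w and 9.87 at 5 d, a change of -0.41. Of 23 measured members of the olfactory neuron list 1, Gap43, was called, beside 1.62% of all genes called lower, and the median was -1.03. The list mean ranged from 7.41 to 9.50 at 13 w and from 9.20 to 10.0 at 5 d. With this mean as a covariate, a choice made after the values were seen, 806 genes were called, 32 of them lower members of the mitosis list. The mean holds Gap43 itself. Over all settings tried, this covariate among them, the smallest changes were -1.03 for Gap43 and -0.94 for Gng8. They were -0.81 for Tubb2b and -0.67 for Nhlh1.

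Gap43 was therefore read relative to Omp in each animal. Its log2 signal minus that of Omp was -1.76, -1.84, -2.11 and -2.002 at 5 d and -2.47, -3.09, -3.24 and -2.88 at 13 w, with no overlap. The difference was -0.99, with an exact permutation p of 0.0286, two-sided, the smallest that 4 against 4 allows. At 2 ppm it was -1.01 (exact permutation p = 0.0286) and at 0.7 ppm -0.46 (exact permutation p = 0.143). For Gng8 relative to Omp it was -0.58 at 0 ppm (exact permutation p = 0.286), -0.16 at 0.7 ppm (exact permutation p = 0.743) and -1.09 at 2 ppm (exact permutation p = 0.0286). Adjusted over these 6 comparisons, chosen after the values were seen, the smallest exact permutation p became 0.0571. The Omp-relative comparison sets changes beside each other and says nothing of which gene is more abundant. It uses the brighter Omp probe set, and its size depends on that choice. The other Omp probe set, which changed by -0.41 at 0 ppm, was not tried.

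**Figure D4:**
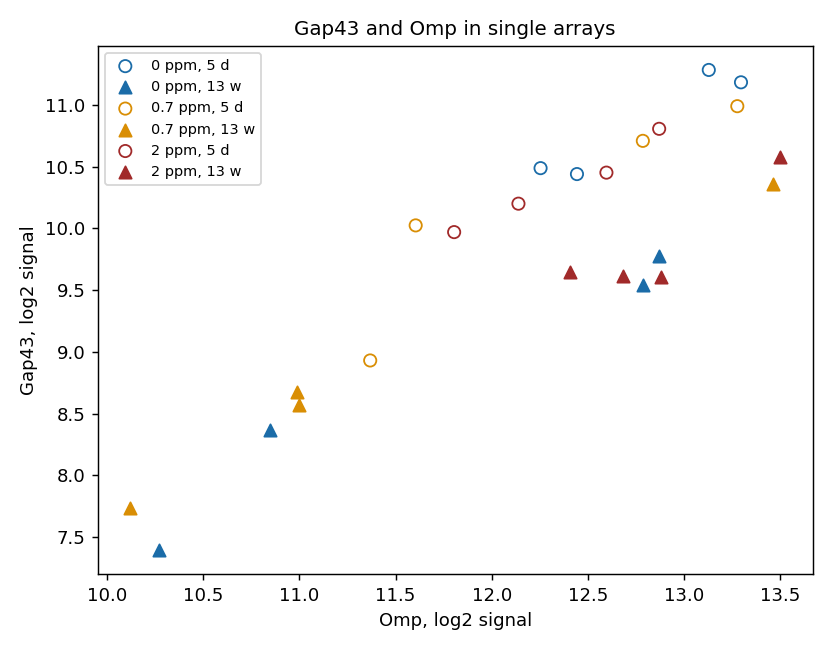
Gap43 (y axis) against Omp (x axis), both as log2 signal, in the 24 arrays of 5 d and 13 w at 0, 0.7 and 2 ppm. At 0 ppm the difference of Gap43 from Omp was -1.93 at 5 d and -2.92 at 13 w on average, and animals 225 and 230 of 13 w have Omp signals below those of every 5 d array at that dose.

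Among called genes the largest rises were those of Ly6al, Jchain and Ighl2. Ly6al, a member of the Ly6 family (Entrez gene 362935), read 7.82, 7.84, 7.62 and 8.56 at 5 d and 9.10, 11.4, 10.4 and 9.36 at 13 w, with no overlap and a wide spread at 13 w. It rose by 2.11 ± 0.44, or 4.32-fold (limma adjusted p = 0.00423), and kept its call without any 1 array. Jchain read 8.19, 8.58, 7.83 and 9.49 at 5 d and 9.74, 11.03, 10.5 and 10.3 at 13 w and rose by 1.88 ± 0.50 (limma adjusted p = 0.0309). Ighl2, an immunoglobulin heavy chain-like gene, rose by 1.68 ± 0.42 (limma adjusted p = 0.0213). Jchain and Ighl2 lost their calls without animal 226 or 230 of 13 w or 204, 207 or 208 of 5 d, and Jchain also without 229, with limma adjusted p up to 0.137 and 0.115. Both were also lost with RNA integrity as a covariate and without the arrays that lack it (limma adjusted p = 0.0655 and 0.0762 for Jchain). With the mean of its probe sets Jchain differed by 1.23 (limma adjusted p = 0.0675), another probe set reading 6.42 at 13 w and 5.85 at 5 d. Of 13 measured B and plasma cell markers 1, Jchain, was called higher (0.626% of all genes), and the median was 0.16. At 2 ppm Jchain rose by 1.85 and Ly6al by 2.36 (limma adjusted p = 0.0157 and 0.000764), and at 0.7 ppm the differences were 0.90 and 1.18 (limma adjusted p = 0.366 and 0.141). Ighl2 differed by 1.12 at 2 ppm and by -0.05 at 0.7 ppm (limma adjusted p = 0.0847 and 0.97).

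Called immune genes other than these went in both directions. Irf7, the interferon-induced regulator of interferon genes, read 10.99, 10.3, 10.6 and 11.1 at 5 d and 9.41, 9.57, 9.55 and 10.0 at 13 w. It fell by 1.14 ± 0.29, or 2.20-fold (limma adjusted p = 0.0235), and was lost without animals 225 or 229 of 13 w or 204, 208 or 210 of 5 d (limma adjusted p up to 0.074). It was the single called member of 37 in the interferon list (1.62% of all genes were called lower), whose median was -0.27. Of those 37, 30 lay below 0 and 17 wholly lower at 13 w, where 7.46% of all genes did, and 14 had an unadjusted p under 0.05, against 16.9% of all genes. The interferon medians at 0.7 and 2 ppm were -0.38 and 0.05, with 0 members called by limma at either dose. Gpnmb, a glycoprotein gene of macrophages, read 9.77, 9.34, 9.75 and 9.78 at 5 d and 8.70, 8.82, 8.37 and 8.68 at 13 w. It fell by 1.02 ± 0.19, or 2.02-fold (limma adjusted p = 0.00136), as it did at 0.7 ppm (by 1.18) and 2 ppm (by 1.40), and kept its call without any 1 array. Of 27 measured macrophage and dendritic cell markers 0 were called (5 lay wholly lower and 1 wholly higher at 13 w, beside 7.46% and 3.9% of all genes), with a median of -0.28. The chemokine gene Ccl17 fell by 0.57 ± 0.15 (limma adjusted p = 0.0253), with overlapping groups. Its call was lost without any 1 of 6 arrays, all but animal 226 of 13 w and 210 of 5 d, up to a limma adjusted p of 0.16 without animal 204 of 5 d. Ccl9, another chemokine gene and, with Ccl17, the other lower call among 39 chemokines and cytokines (1.62% of all genes), had low signal at both times (4.70 to 5.07 at 13 w, 5.17 to 6.54 at 5 d). It was called lower (limma adjusted p = 0.00484), but not without animal 208 of 5 d (0.0774). Lbp, the binding protein of bacterial lipopolysaccharide, rose by 0.65 ± 0.19 (limma adjusted p = 0.0488) and was lost without any 1 of 7 arrays, all but animal 210 of 5 d (up to 0.215 without 207). With Fgb, a fibrinogen chain gene of low signal (5.01 at 13 w and 4.56 at 5 d), it made 2 higher calls among 23 complement and acute phase genes (0.626% of all genes).

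Among the remaining rises, Tnnt1, a slow skeletal troponin gene, was flat at 6.29, 6.33, 6.32 and 6.32 at 5 d and read 8.61, 7.64, 7.41 and 8.19 at 13 w. It rose by 1.64 ± 0.28, or 3.12-fold (limma adjusted p = 0.000604), and by 1.86 and 1.63 at 0.7 and 2 ppm. It was the single called member of 24 skeletal muscle markers (0.626% of all genes were called higher), whose median was -0.06, while the muscle actin gene Acta1 differed by -0.46. Atp6v1g3, a proton pump subunit gene, read 9.70, 9.16, 8.46 and 8.33 at 5 d and 10.8, 10.1, 10.7 and 10.8 at 13 w. It rose by 1.68 ± 0.38 (limma adjusted p = 0.00768), and the p was 0.0507 without animal 208 of 5 d. Angpt1, the vessel-stabilising ligand angiopoietin 1, had low signal at 5 d (4.46 to 5.30) and 5.96 to 6.29 at 13 w, and the difference passed (limma adjusted p = 0.000532). Nrgn, a calmodulin-binding protein gene, rose by 0.89 ± 0.17 (limma adjusted p = 0.00184). Ehf, an epithelial transcription factor gene, rose by 0.82 ± 0.19 (limma adjusted p = 0.014, and 0.0621 without animal 229 of 13 w). Abcc1, an efflux pump of glutathione conjugates, rose by 0.64 ± 0.17 (limma adjusted p = 0.0331) and was the single call among 36 Nrf2 and glutathione genes, where 0.626% of all genes were called higher. It was lost without any 1 of 6 arrays, all but animal 226 of 13 w and 210 of 5 d, up to 0.157 without 207. Kcnk1, a potassium channel gene, rose by 0.74 ± 0.18 (limma adjusted p = 0.0143) and was lost without animal 230 of 13 w (0.0707) or 207 of 5 d. Uts2r, the urotensin 2 receptor gene, rose by 1.09 ± 0.31 (limma adjusted p = 0.0427) and was lost without any 1 of 6 arrays, all but animal 226 of 13 w and 204 of 5 d, up to 0.134 without 208. Among the falls, Mex3b, an RNA-binding protein gene, had low signal at 13 w (mean 5.73, against 7.03 at 5 d) and was called lower (limma adjusted p = 0.00674). Atp8b4, a phospholipid transporter gene, fell by 1.19 ± 0.31 (limma adjusted p = 0.0237) and was lost without animal 230 of 13 w (0.131) or 207 or 208 of 5 d. Plau, which encodes urokinase, was the single call among 28 matrix metalloproteinase and inhibitor genes, where 1.62% of all genes were called lower. It fell by 0.66 ± 0.18 with overlapping groups (limma adjusted p = 0.0327) and was lost without any 1 of 7 arrays, all but animal 210 of 5 d, up to 0.119 without 207. At 0.7 and 2 ppm Plau fell by 0.99 and 0.78 (limma adjusted p = 0.00157 and 0.00488).

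**Figure D5:**
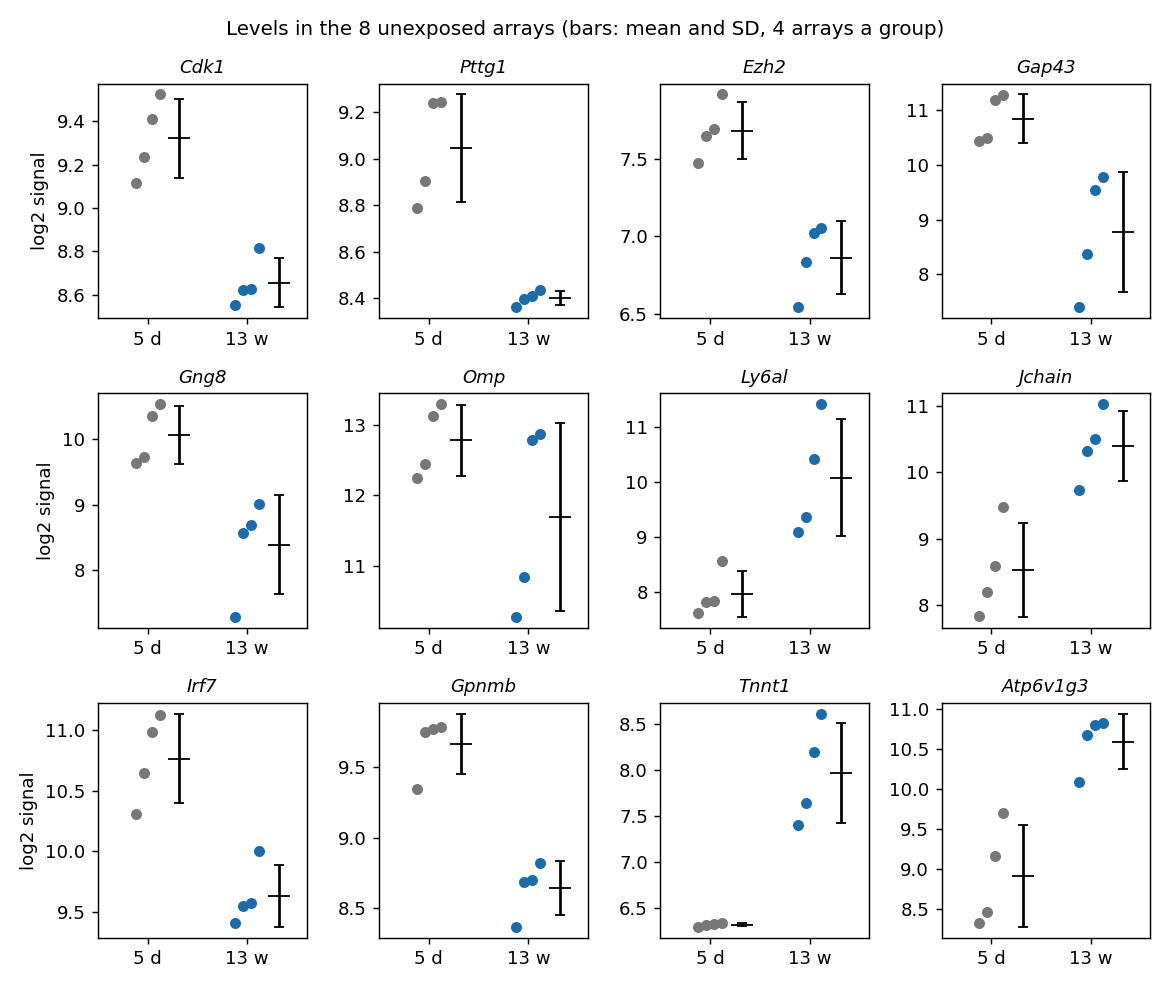
Log2 signal (y axes, each panel on its own scale) of 12 genes in the 4 unexposed arrays of 5 d (grey) and of 13 w (blue), with mean and SD as bars. In all panels but that of Omp the groups do not overlap, which the naming rule required of genes named as largest changes. The 13 w values of Gap43 and Omp spread more than those of 5 d.

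The stress and biosynthesis lists held from 0 to 3 calls each, beside 1.62% of all genes called lower and 0.626% higher. Of 26 heat shock and metallothionein genes 3 were called lower: Hsph1 fell by 0.53 ± 0.13, Dnaja1 by 0.29 ± 0.07 and Hsp90ab1 by 0.23 ± 0.06, all chaperone genes. Each lost its call without animal 207 or 208 of 5 d or 230 of 13 w, Hsph1 and Hsp90ab1 also without 229 or 210, and Dnaja1 and Hsp90ab1 also without 225 (limma adjusted p up to 0.168), and another probe set of Hsp90ab1 was higher at 13 w (12.8 against 12.5). Psat1, an enzyme gene of serine synthesis and the single call among 33 unfolded protein and integrated stress genes, fell by 0.40 ± 0.08 (limma adjusted p = 0.00471). Acaca, the rate-limiting enzyme of fatty acid synthesis, fell by 0.39 ± 0.08 (limma adjusted p = 0.00424), though another, low-signal probe set went the other way (5.11 at 13 w against 5.04). Tm7sf2, a sterol reductase gene, was the other call among 30 cholesterol and fatty acid synthesis genes. It fell by 0.40 ± 0.11 with overlapping groups (limma adjusted p = 0.0401), and was lost without animal 225 or 230 of 13 w or 207 or 208 of 5 d (up to 0.242 without 230). Of 37 immediate early genes 2 were called, both higher: Zfp36, which promotes decay of inflammatory messages, by 0.64 ± 0.18 (limma adjusted p = 0.0427), and Jund, a subunit gene of the AP-1 transcription factor, by 0.24 ± 0.06 (limma adjusted p = 0.0312). Zfp36 was lost whichever of the 8 arrays was left out, up to 0.139 without animal 230 of 13 w. Jund was lost without any 1 of 7, all but 226 of 13 w, up to 0.131 without 225.

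Many lists showed 0 calls with limma. These included 30 fibrillar collagen and processing genes (median -0.22), 24 circadian clock genes (median 0.10), 39 P450 and xenobiotic metabolism genes (median 0.05), 31 secretory and mucous genes (median -0.03), 37 basal and squamous genes (median -0.07) and 29 T and natural killer cell markers (median 0.11). Unadjusted p under 0.05 was reached by 2 of the collagen genes and 4 of the clock genes, and by 16.9% of all genes. Col1a1 read from 11.6 to 13.2 at 5 d and from 12.6 to 13.1 at 13 w (limma adjusted p = 0.639). At 2 ppm 19 of the 30 collagen genes were called lower (median -1.05), where 6.37% of all genes were, and at 0.7 ppm 2 were (median -0.57), where 1.05% were. The difference between these time changes passed for 0 of them.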

How the data were processed

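Nasal epithelial RNA of 68 rats, 4 in each of 17 groups, was hybridised to Affymetrix Rat230_2 arrays of 1 colour. The authors deposited log2 signals. The submitters' processing notes name GCOS 1.0 and RMA, the latter without a version. No scaling was added (array medians 6.82 to 6.96). Arrays carry no read depth, so the number of animals limits precision, with a median SE of 0.10. A model with a mean for every group was fitted over the whole series in limma 3.58.1 (R 4.3.3), and p-values were adjusted by Benjamini-Hochberg over 14217 genes. Probe sets with several genes (436) or none (9831) were left out. A group mean under 6 is low signal and received no fold. Single values were compared with exact permutation tests. The replicate numbers are animal numbers and pair no samples. No label states litters or chambers, so an effect of either could not be modelled or told apart from the groups. The limma p-values set a difference against the spread between arrays within groups, pooled over all 17 groups.

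Genes named were the 20 largest changes of each sign among called genes with groups that do not overlap, up to 4 called members of each list, called interaction genes, and fixed markers, and the text names part of these. Members and lists were chosen with earlier results of these data known. On simulated data for the 0 ppm comparison (14217 genes, 50 changed of each size) the fit called 64% of genes changed by 0.5, 84% at 1, 98% at 2 and 90% at -1 log2 units, with 14 false calls. The simulated noise was independent between genes and had the same spread in every group. Shifts shared by many genes of an array were not simulated, so these rates need not hold for the real arrays. Alternatives covered scaling, probe set choice, low signal, weights, covariates, fewer arrays and each compared array left out. For the interactions only unexposed arrays were left out in turn.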

Additional observations from a re-analysis of the deposited data

Results flagged for a closer look

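Of 123 sets of 4 unexposed arrays checked, 4 held an animal set apart from the other 3, and chance gives about 1 in 20. Top2a of animal 208 at 5 d was 8.04 against 7.81 for the next. Gpnmb of animal 207 at 5 d was 9.34 against 9.75. Kcnk1, a potassium channel gene that rose by 0.74 ± 0.18, was 9.07 in animal 226 at 13 w against 9.46. The RNA integrity number of animal 204 at 5 d was 8.1 against 7.6.

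Mmp15 differed between 0.7 and 0 ppm in its change with time, by 0.47 ± 0.09 (limma adjusted p = 0.0335), with a change of -0.19 without exposure and of 0.29 at 0.7 ppm. At 2 ppm its change was -0.08, which differed from that at 0 ppm by 0.10 (limma adjusted p = 0.651).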

How the results depend on the processing

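For 0 ppm the count of 319 became 74 with a 1.5-fold minimum, 528 with every probe set by itself (257 higher, 271 lower), 1242 with array weights, 0 on the 8 arrays alone and 806 with the olfactory covariate, which was added after seeing the data. Leaving out 1 array gave 87 to 329 genes. The mitosis count of 24 went to 0 on the 8 arrays alone, and to 13 to 24 without 1 array. For 0.7 ppm the count of 269 became 56 with the fold, 848 with weights, 171 with RNA integrity and 0 on the groups alone, and 50 to 458 without 1 array. For 2 ppm 1212 became 341 with the fold, 2641 with weights, 599 with RNA integrity and 626 without arrays lacking it, and 321 to 1107 without 1 array. The single gene of the 0.7 ppm interaction went to 0 with the fold, cyclic loess, every probe set, the 0, 0.7 and 2 ppm arrays, arrays without RNA integrity left out and the groups alone. It went to 0 to 1 without 1 unexposed array, and leaving out single 0.7 ppm arrays was not tried. The 2 ppm interaction went from 0 to 7 with weights and 2 on the groups alone. The RNA integrity difference ranged from -0.175 to 0.033 without 1 array, turning to 0.025 without animal 230 of 13 w and 0.033 without 204 of 5 d. Relative to Omp, Gap43 ranged from -1.14 to -0.88 at 0 ppm without 1 array, and its exact permutation p rose to 0.0571 without 204, 207 or 210 of 5 d (-0.94, -0.96 and -1.01). At 0.7 ppm it ranged from -0.58 to -0.28, and Gng8 from -0.93 to -0.32 at 0 ppm and -0.34 to 0.15 at 0.7 ppm. Among named genes Hsp90ab1 turned to 0.0592 with the mean of its probe sets, and Omp, Gng13 and Cnga2 to 0.139, 0.0929 and 0.231 with the olfactory covariate, whose mean contains all 3. Beside left-out arrays and the fit on 8 arrays, named calls were lost with median centring (Rfc3, Nhlh1, Hsp90ab1, Dnaja1, Tm7sf2, Plau), cyclic loess (Rfc3, Nhlh1, Jund, Tm7sf2), the mean of probe sets (Ccno, Jchain, Jund, Dnaja1, Acaca), RNA integrity as a covariate or arrays lacking it left out (Cdt1, Rfc3, Jchain, Ighl2, Lbp, Zfp36, Plau, and Irf7 with the latter), the 0, 0.7 and 2 ppm arrays alone (Rfc3, Ccl17, Uts2r, Hsph1, Hsp90ab1, Tm7sf2, Plau), the actin covariate (Lbp) and the olfactory covariate (Lbp, Uts2r, Zfp36, Tm7sf2). The causes were not tested. Of 48 named called genes, 19 kept their call in each setting but the fit on the 8 arrays alone, where 0 of 48 did. Fgb, also named as a call, is not among the 48 and was not followed through the settings. No paired analysis was possible because the replicate numbers are animal numbers that no 2 groups share.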
